A study of Mus musculus with 4 samples.

Results

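Chaperone and unfolded protein response genes of the endoplasmic reticulum (ER) were examined in mouse CD4+ T cells (helper T cells) grown in culture. The 10 genes were Hspa5, Hsp90b1, Xbp1, Dnajb9, Herpud1, Sdf2l1, Calr, Canx, Pdia4 and Pdia6, chosen by name, and every probe set that the array's annotation gives to exactly 1 of them was taken. That gave 23 of 45037 probe sets, with 1 to 4 per gene, and all 10 genes were on the array, among 18193 genes with such a probe set. Naive CD4+ cells from spleen, peripheral and mesenteric lymph nodes were kept for 7 days in medium holding 10% serum and 2.5 ug/ml concanavalin A, a lectin used to stimulate T cells. In the first group, of 2 arrays, the medium also held 1 ng/ml human TGFb1, a cytokine under which naive cells can become regulatory T cells. In the second, also of 2 arrays, it held that TGFb1 together with 2000 ng/ml progesterone, a steroid hormone. All arrays thus shared the lectin and TGFb1, and no group without TGFb1 or with progesterone alone was analysed here. The strain, age, sex and number of the mice are not given in the sources used here.

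The deposited signals differed in brightness, with trimmed mean signals of 146.2 to 155.4 for TGFb1 alone and of 108.3 to 138.5 with progesterone, and were therefore quantile normalised. Over 22518 tested probe sets, r was 0.980 and 0.983 within groups and 0.944 to 0.962 between them, computed across probe sets, which are not independent replicates. Sex chromosome genes separated the groups as well. Xist, transcribed from the inactive X chromosome, had deposited signals of 9.52 and 9.70 with TGFb1 and 1390 and 825 with progesterone, and the Y-linked Eif2s3y had 689 and 727 against 4.25 and 0.49. Of 8 tested T cell markers none passed the test by limma (median difference -0.0012), Cd3e and Cd4 among them. Of 5 tested B and plasma cell markers 1, Ighm, fell (-0.92 ± 0.10 SE on the log2 scale, progesterone minus TGFb1 alone), while a further probe set of it was at 0.20. The summed deposited signal of that list without Ighm was 192 and 162 for TGFb1 alone against 325 and 188 with progesterone, and the plasma cell genes Jchain, Sdc1 and Tnfrsf17 lay below the level filter. Of 7 tested macrophage markers 1, Lyz2, rose, while differences in that list ran both ways, from -0.99 to 2.69. The summed deposited signal of the list, Lyz2 included, was 637 and 327 against 1045 and 947. All 3 tested markers of the platelet and erythroid list (the platelet genes Pf4, Ppbp and Itga2b) rose. The summed deposited signal of the 5 genes of that list on the array, untested ones included, was 199 and 175 against 854 and 820. Of the neutrophil markers 1 of 3 rose (S100a8), of the mast cell markers 1 of 5 rose (Kit), and the 1 tested endothelial marker, Pecam1, fell. None of the tested markers of CD8 T cells (2), dendritic cells (2) and NK cells (1) passed. The signals of Xist and the Y-linked genes differed wholly by group, so a difference in the sex of the mice, which the labels do not give, and progesterone cannot be told apart in any difference below. The part of the marker differences in the results was not tested.

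The ER folds proteins that are to be secreted or placed in membranes. When folding falls behind, sensors in the ER membrane start the unfolded protein response: ATF6 is cut to release a transcription factor, the sensor encoded by Ern1 splices the mRNA of Xbp1 into the form that makes an active factor, and the kinase encoded by Eif2ak3, PERK, slows translation. The response raises chaperones such as BiP (Hspa5), enzymes that form disulphide bonds and factors that return misfolded proteins to the cytosol for degradation. In lymphocytes XBP1 is best known for its need in plasma cells.

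A textbook control element of these genes, the ER stress response element (ERSE), reads CCAAT, then 9 bases of any kind, then CCACG, and its shorter relative ERSE-II reads ATTGG, then 1 base of any kind, then CCACG. Both were searched on both strands of the RefSeq promoter windows, which hold 250 bases before and 50 after each gene start on GRCm38.p6, and all 10 genes had a window. ERSE was found in 5 of the 10 windows and in 0.119% of all 32851 windows, and ERSE-II in 1 of the 10 and in 0.0365% of all. Hsp90b1 was the member with 2 ERSE copies. The matched sites are shown because they are the known control elements that 6 of the 10 windows hold. They are written 5′ to 3′ in the direction of the element, with the fixed letters in capitals.

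Hspa5, 65 to 47 bases before the start: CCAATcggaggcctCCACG
Hsp90b1, 212 to 194 bases before the start: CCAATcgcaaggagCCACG
Hsp90b1, 107 to 89 bases before the start, on the opposite strand: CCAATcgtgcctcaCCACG
Calr, 162 to 144 bases before the start, on the opposite strand: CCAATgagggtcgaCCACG
Canx, 145 to 127 bases before the start: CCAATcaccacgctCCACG
Pdia6, 98 to 80 bases before the start: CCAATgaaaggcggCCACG
Herpud1 (ERSE-II), 52 to 42 bases before the start: ATTGGgCCACG

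The windows of Xbp1, Dnajb9, Sdf2l1 and Pdia4 held neither element, which says only that these letters are not in this window. The core of a further element, TGACGTGG, was in none of the 10 windows and in 0.676% of all. The 250 bases before the start are given for Hspa5, the standard reporter of the response, for Hsp90b1, with its 2 copies, and for Herpud1, with ERSE-II, from RefSeq and with the fixed letters of each match in capitals.

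Hspa5, chr2:34771840-34772089, plus strand: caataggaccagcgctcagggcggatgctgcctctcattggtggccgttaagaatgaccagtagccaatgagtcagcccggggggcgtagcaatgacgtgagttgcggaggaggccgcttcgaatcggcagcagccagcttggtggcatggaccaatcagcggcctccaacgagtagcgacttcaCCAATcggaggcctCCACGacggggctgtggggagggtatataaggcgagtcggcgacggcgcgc
Hsp90b1, chr10:86705445-86705694, minus strand: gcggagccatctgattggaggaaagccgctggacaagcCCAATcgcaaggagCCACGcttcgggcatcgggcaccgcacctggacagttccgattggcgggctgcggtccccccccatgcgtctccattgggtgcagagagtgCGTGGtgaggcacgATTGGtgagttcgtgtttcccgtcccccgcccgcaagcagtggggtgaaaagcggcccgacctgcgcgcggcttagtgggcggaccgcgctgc
Herpud1, chr8:94386179-94386428, plus strand: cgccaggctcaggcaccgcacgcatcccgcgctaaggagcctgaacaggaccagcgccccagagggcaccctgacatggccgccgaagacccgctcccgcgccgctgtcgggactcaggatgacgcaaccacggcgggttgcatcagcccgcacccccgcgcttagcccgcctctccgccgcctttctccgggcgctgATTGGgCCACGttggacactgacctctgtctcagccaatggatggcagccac

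The comparison asks which genes respond when progesterone is added to TGFb1. Differences in the ER genes were small. Of 22 tested member probe sets 1, for Xbp1, rose by limma (adjusted p below 0.05), and none fell, against 2.36% of all tested probe sets called as higher, 3.62% as lower and 5.99% in either direction. That share of the 22 is near the background. All differences lay between -0.36 and 0.48 on the log2(signal + 16) scale, progesterone minus TGFb1 alone, with a median of 0.10 against 0.03 for all 22518. In all, 22 of 22 were smaller than 0.5 in size, as were 84.2% of all tested probe sets. After quantile normalisation the 95% interval of each of the 22 differences lay within a 2-fold change either way, and for 12 of them within 1.5-fold. This bound does not hold under every scaling. Herpud1 1448185_at was at -0.83 ± 0.17 (SE) when arrays were centred on their medians and at -0.71 ± 0.27 as deposited. Hspa5 1416064_a_at was at -0.56 ± 0.26 as deposited. The SE as deposited came wholly from limma's variance trend over probe sets, not from a probe set's own replicates. With 2 arrays per group changes of the sizes given here can go uncalled, so a gene that did not pass is not shown to be unchanged. Of the 22 differences 10 were below 0, as were 46.1% of all. Unadjusted p-values under 0.05 numbered 5 upward and 1 downward of 22, against 21.3% of all. The 23rd probe set, 1450620_at for Pdia4, was under the level filter: its signals were 0.864 and 5.31 against 7.01 and 11.9 as deposited, and it was not tested. Whether replicates are separate cultures or animals is not in the labels, and the p-values cover just the spread among these samples, possibly a technical one. In bulk RNA fewer cells of a type and less RNA per cell cannot be told apart.

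**Figure D1:**
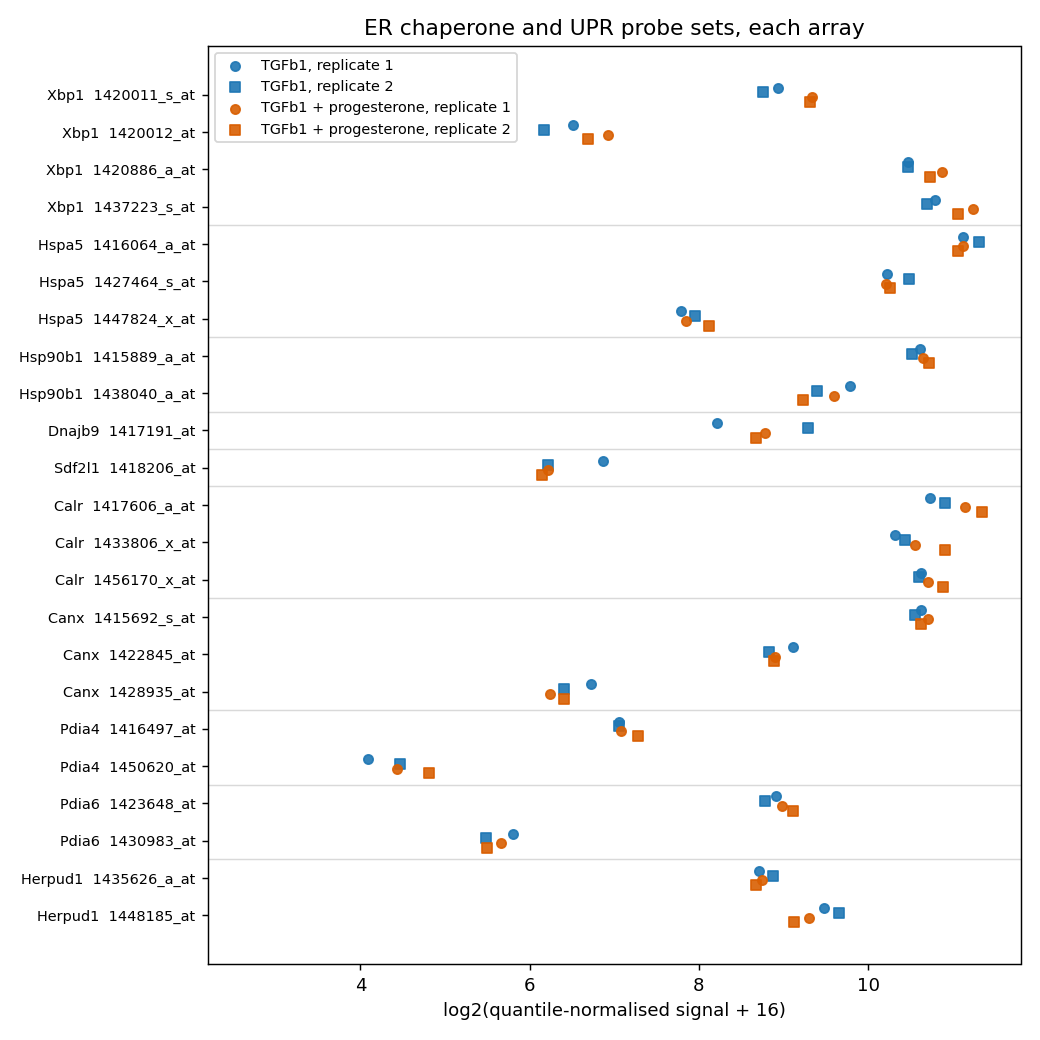
Each row is a probe set, and points give log2(quantile-normalised signal + 16) in each of the 4 arrays, blue for TGFb1 alone and orange for TGFb1 plus progesterone, with circles for replicate 1 and squares for replicate 2. The orange points of all 4 Xbp1 and all 3 Calr probe sets lie to the right of the blue ones, whereas for most other genes the colours mix or differ in order between probe sets.

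Xbp1, the transcription factor gene of the response, was the member with a call. Its probe set 1437223_s_at had quantile-normalised signals of 1750 and 1646 with TGFb1 alone and 2402 and 2130 with progesterone. Both progesterone arrays were above both TGFb1 arrays. The difference was 0.41 ± 0.09 (SE, n = 2 per group), a 1.33-fold rise (95% interval 1.15 to 1.54), with an adjusted p = 0.0434. The other 3 probe sets of Xbp1 were also higher in both progesterone arrays than in either TGFb1 array, but did not pass. For 1420886_a_at the signals were 1407 and 1402 against 1854 and 1686 (0.33 ± 0.09, adjusted p = 0.0819). For 1420011_s_at they were 473 and 418 against 633 and 619 (0.48 ± 0.12, adjusted p = 0.0604). The dimmest, 1420012_at, had 75.04 and 56.2 against 106 and 87.1 (0.47 ± 0.20, adjusted p = 0.24). The 4 probe sets target the same gene and are not replicates of the treatment, and splicing of Xbp1 was not measured here. The call depended on scaling: on the deposited signals, 2118 and 1794 against 2318 and 1581, which overlap, 1437223_s_at was at -0.03. After centring arrays on their medians it was at -0.15. Scaled to one 75th percentile it was at 0.18 and did not pass (adjusted p = 0.4). In all, 1437223_s_at passed by limma in 6 of 15 alternatives. It did not pass without a level filter (adjusted p = 0.122), with the upper 25 percent by mean (0.0521) or without an intensity trend (0.202). Nor did it pass when TGFb1 replicate 2 or either progesterone array was left out.

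The central chaperones did not pass. Hspa5 encodes BiP, the Hsp70 chaperone of the ER that also holds the sensors inactive. Its probe set 1416064_a_at had signals of 2217 and 2524 with TGFb1 and 2210 and 2113 with progesterone, so that the groups lay apart by only a small gap. The difference was -0.13 ± 0.09 with a 95% interval from -0.34 to 0.08 (adjusted p = 0.458). The probe set 1427464_s_at gave 1177 and 1411 against 1173 and 1209, overlapping, at -0.11 ± 0.11. The probe set 1447824_x_at gave 205 and 232 against 215 and 263, also overlapping, and had the opposite sign (0.12 ± 0.16). Hsp90b1 encodes GRP94, the Hsp90 chaperone of the ER. Its probe set 1415889_a_at had 1544 and 1446 against 1591 and 1668, a difference of 0.12 ± 0.09 (interval -0.08 to 0.33, adjusted p = 0.471). Its probe set 1438040_a_at had 868 and 658 against 758 and 586, overlapping, at -0.18 ± 0.17. For neither chaperone did the probe sets share a sign.

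Of the co-chaperone genes, Dnajb9 encodes ERdj4, a J protein that works with BiP and is a classical XBP1 target. Its signals were 282 and 612 for TGFb1 alone and 424 and 392 with progesterone. The progesterone arrays lay between the TGFb1 arrays, whose gap on the log2 scale (1.08) was at the 99.2th percentile of all tested probe sets. The difference of -0.03 ± 0.30 therefore had a wide interval, from -0.72 to 0.66 (adjusted p = 0.969). Without TGFb1 replicate 1 it was -0.56 and passed (adjusted p = 0.0469), and without TGFb1 replicate 2 it was 0.51 and did not. Sdf2l1, which stabilises ERdj co-chaperones and is a sensitive target of the response, had 101 and 58.7 against 58.6 and 54.7. One TGFb1 array was high, and the other was at the level of the progesterone arrays. The difference was -0.36 ± 0.25 (interval -0.94 to 0.21, adjusted p = 0.444).

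Calr and Canx encode calreticulin and calnexin, the lectin chaperones that hold newly made glycoproteins, one soluble and one in the membrane. Calr came closest to the threshold after Xbp1. Its probe set 1417606_a_at had 1680 and 1913 with TGFb1 and 2245 and 2585 with progesterone, with both progesterone arrays above. The difference was 0.42 ± 0.10, or 1.34-fold (interval 1.13 to 1.59), with an adjusted p = 0.0588. The probe set 1433806_x_at gave 1258 and 1370 against 1482 and 1902 (0.35 ± 0.13, adjusted p = 0.169), and 1456170_x_at gave 1560 and 1538 against 1650 and 1878 (0.18 ± 0.10, adjusted p = 0.315). As deposited all 3 probe sets had differences below 0, from -0.25 to -0.02, and 1417606_a_at had overlapping signals of 2042 and 2091 against 2179 and 1902. Canx did not pass in any of its 3 probe sets. Its probe set 1415692_s_at had 1556 and 1485 against 1653 and 1567, a difference of 0.08 ± 0.09 (interval -0.12 to 0.28). The probe sets 1422845_at (-0.08 ± 0.13) and 1428935_at (-0.24 ± 0.20) had the opposite sign. The difference between the responses of Calr and Canx was not tested.

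Pdia4 and Pdia6 encode protein disulphide isomerases, which form and exchange disulphide bonds in folding proteins. Pdia4 was measured by 1416497_at, with 117.4 and 117.0 against 119.6 and 139.0, a difference of 0.12 ± 0.16 (interval -0.26 to 0.50). The brighter Pdia6 probe set, 1423648_at, had 464 and 425 against 489 and 535, at 0.20 ± 0.12 (interval -0.08 to 0.48). The dim Pdia6 probe set 1430983_at, with 40.0 and 28.8 against 34.6 and 29.2, was at -0.07 ± 0.24. For the brighter probe set of each gene both progesterone arrays were above both TGFb1 arrays, by a margin that the test did not call.

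Herpud1 encodes a membrane protein of the complex that sends misfolded ER proteins to the proteasome. It was the member with the largest downward estimate beside Sdf2l1. Its probe set 1448185_at had 700 and 787 with TGFb1 and 614 and 541 with progesterone. Both progesterone arrays were below both TGFb1 arrays. The difference was -0.36 ± 0.12, or 0.781-fold (interval 0.643 to 0.950), with an unadjusted p = 0.0196 and an adjusted p = 0.146. It passed when each array was scaled to one 75th percentile (-0.51, adjusted p = 0.0468) and when each was centred on its median (-0.83, adjusted p = 0.00566). The second probe set, 1435626_a_at, had 405 and 454 against 414 and 394, overlapping, at -0.08 ± 0.12. Both probe sets of Herpud1 were below 0 under all 4 scalings of the arrays. So were the only probe sets of Sdf2l1 and Dnajb9 and some of those of Hspa5, Canx and Hsp90b1.

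**Figure D2:**
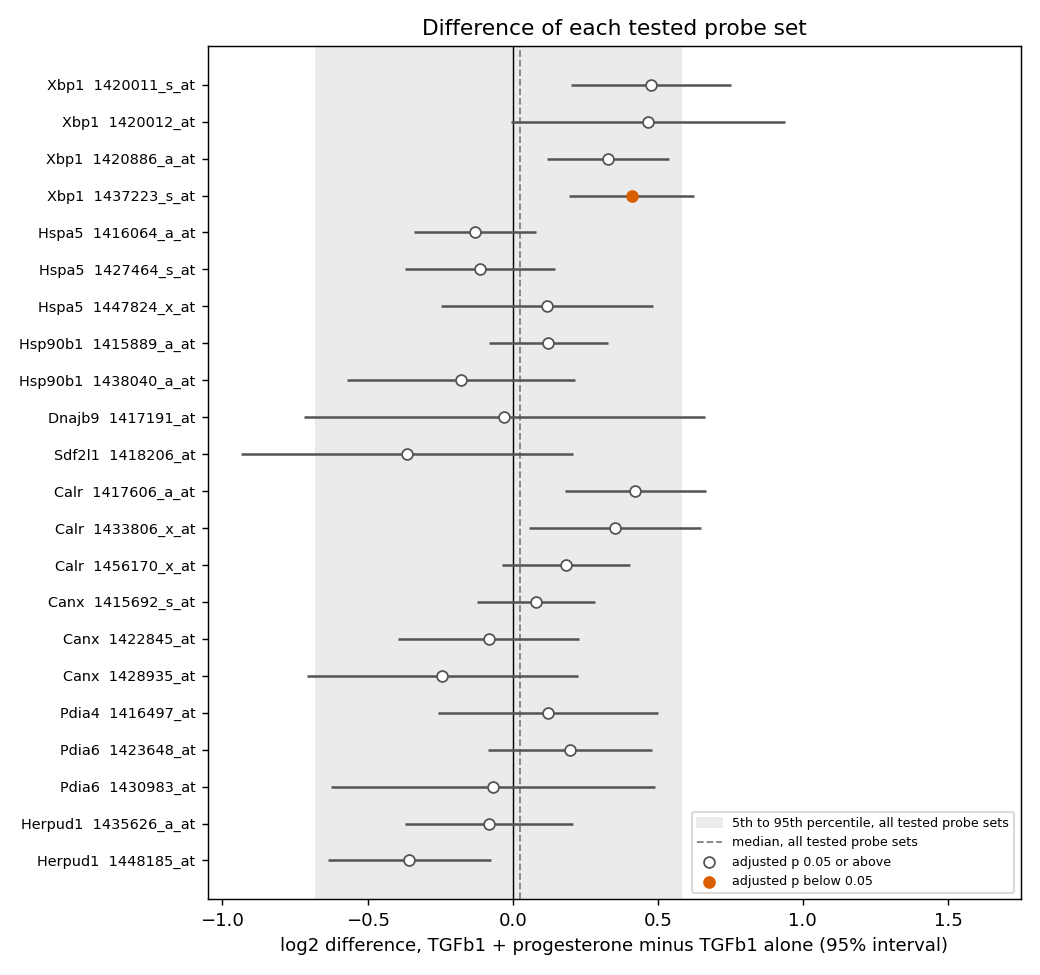
Points give the log2 difference, TGFb1 plus progesterone minus TGFb1 alone, of each of the 22 tested probe sets, and lines its 95% interval from limma; the shaded band spans the 5th to 95th percentile of all 22518 tested probe sets (-0.68 to 0.58). Every point lies inside the band, and the filled point, Xbp1 1437223_s_at at 0.41, is the one that passed.

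Across the 22 probe sets, 11 had both progesterone arrays above both TGFb1 arrays and 4 had both below, against 29.3% and 24.0% of all tested probe sets (53.2% either way), and 7 overlapped. The 11 were the 4 of Xbp1, the 3 of Calr and 1 each of Canx, Hsp90b1, Pdia4 and Pdia6. On the deposited signals the count turned, to none above, 11 below and 11 overlapping. The shares above are after quantile normalisation, and the share of all probe sets was not counted on deposited signals. There the median of all tested ones was itself below 0 (-0.16), so this count is not a result about the members. How the arrays are scaled moved all probe sets: the median of all tested ones was 0.03 after quantile normalisation, 0.02 when scaled to one 75th percentile, -0.16 as deposited and -0.28 when centred on the median. Over the upper 25% of probe sets by level, where 17 of the 22 lie, these medians were 0.03, -0.08, -0.28 and -0.40. The members' medians followed, at 0.10, -0.08, -0.28 and -0.40. Calls over all tested probe sets were 532 higher and 816 lower after quantile normalisation, 473 and 1148 with one 75th percentile, 282 and 1298 as deposited and 267 and 5276 when centred. Among members no probe set passed as deposited. When centred, 7 fell, for Hspa5, Canx and Herpud1 with 2 each and Hsp90b1 with 1, and none rose. The direction thus rested on the scaling for the tested probe sets of Calr, Pdia4 and Pdia6 and for the brightest ones of Canx, Hsp90b1 and Xbp1. The estimates for Hspa5 1416064_a_at and for the probe sets of Herpud1, Sdf2l1 and Dnajb9, among others, were below 0 under all 4 scalings. The order among members depended on the scaling less. The 4 probe sets of Xbp1 had a median of 0.44, 0.26, 0.06 and -0.07 under the 4 scalings, and the 18 of the 9 other genes had -0.05, -0.14, -0.32 and -0.45. Of those 18, 16 lay below the lowest Xbp1 probe set after quantile normalisation and 14 under each other scaling.

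**Figure D3:**
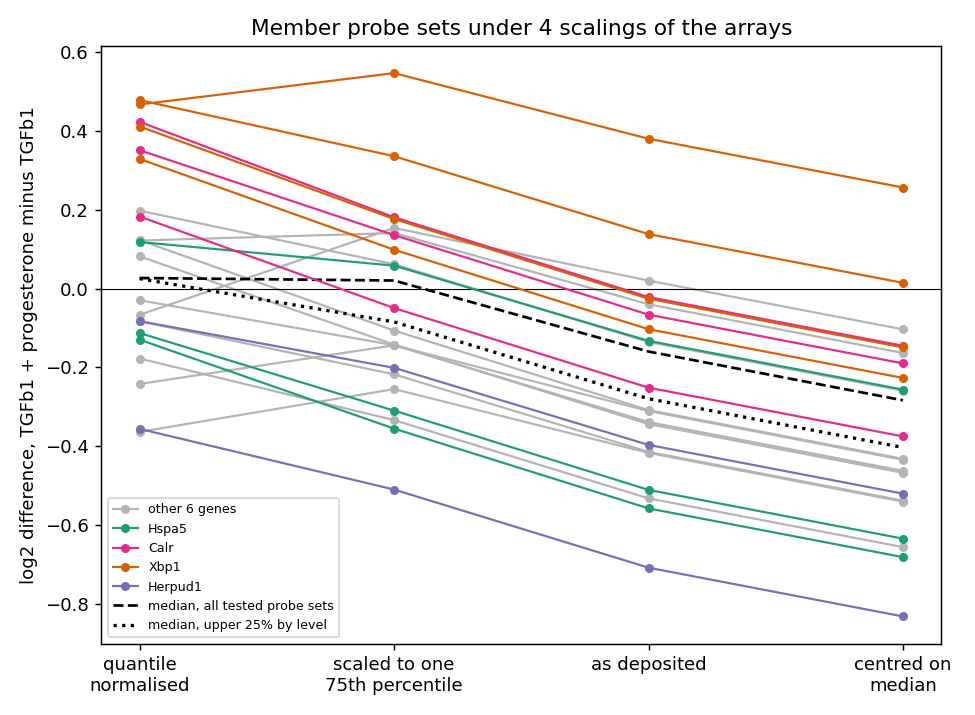
Each line follows 1 member probe set over 4 ways of scaling the arrays, and the vertical axis gives the log2 difference, TGFb1 plus progesterone minus TGFb1 alone; the dashed and dotted lines are the medians of all tested probe sets and of the upper 25% by level. The members move down with the dotted line, from a median of 0.10 to -0.40, with Xbp1 and Calr in the upper part and Herpud1 1448185_at lowest, beside Sdf2l1 after quantile normalisation.

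A ratio of signals within an array does not change when the whole array is multiplied by a factor. Quantile normalisation is not such a factor and can change it, so the ratios given here hold for the deposited signals. The signal of Xbp1 (1437223_s_at) over that of Hspa5 (1416064_a_at) was 0.788 and 0.656 for TGFb1 alone and 1.08 and 1.01 with progesterone. The groups lay apart, with a mean ratio 1.45-fold higher. This shows that the signals did not change alike, and not whether one or both of them changed. Over Herpud1 (1448185_at) the ratio was 2.61 and 2.09 against 3.81 and 3.79, or 1.62-fold higher. Over Calr (1417606_a_at) it was 1.04 and 0.858 against 1.06 and 0.831, with overlap. Of 9 such ratios, 1 for each other member by its brightest probe set, 5 were higher in both progesterone arrays (Herpud1, Hspa5, Sdf2l1, Canx and Hsp90b1) and 4 overlapped. The same ratio was higher without overlap for 44.5% of 10500 other genes, so the members stood near that background. With 2 arrays per group no exact permutation test of a single ratio can pass, and these ratios, chosen after the values were seen, are a description.

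**Figure D4:**
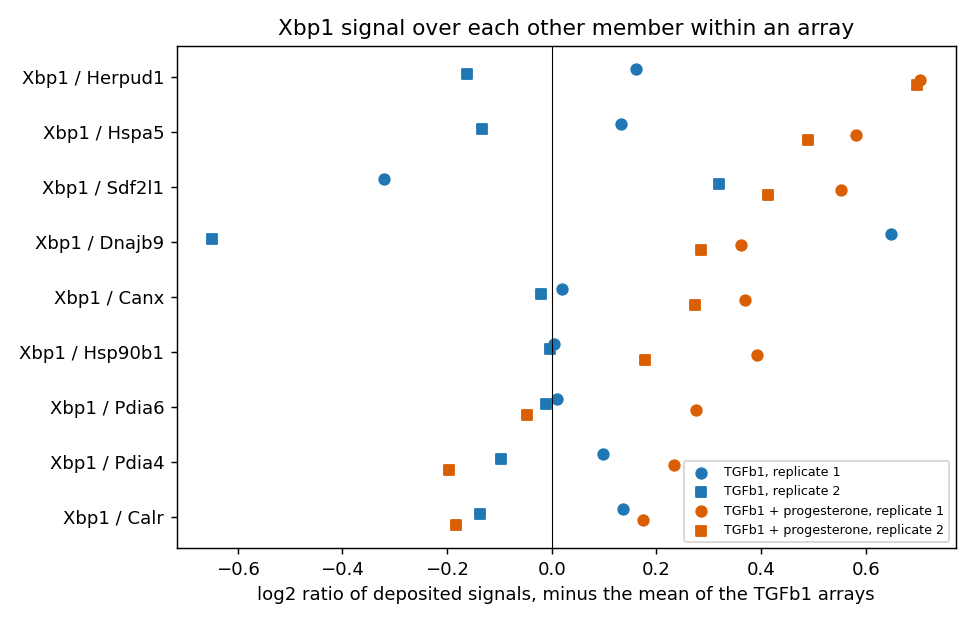
Points give the log2 ratio of the deposited Xbp1 signal (1437223_s_at) to that of each other member in each array, less the mean of the TGFb1 arrays, with blue for TGFb1 and orange for TGFb1 plus progesterone. The orange points lie to the right of both blue points for 5 members, with the largest shift over Herpud1 (0.70) and almost none over Calr (-0.0044).

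Wider lists of the secretory and stress pathways, taken by the brightest probe set of each gene, had few calls after quantile normalisation, and their counts depended on the scaling as well. Over 8 lists 129 genes were tested, and 1 rose and 3 fell, against 2.63% and 4.68% of 10501 genes, with a median of 0.0049 against 0.02. When arrays were centred on their medians, 0 rose and 54 of the 129 fell, beside 5276 lower calls over the 22518 probe sets. These are unlike sets, since 118 of the 129 lay in the upper 25% by mean. Under that centring the median was -0.40 over the upper 25% and -0.28 over all. With one 75th percentile the list counts were 0 and 10, and as deposited 0 and 8. The values and calls that follow are those after quantile normalisation. Of the sensors, Ern1 was at 0.28 ± 0.15, Eif2ak3 (PERK) at 0.34 ± 0.13 and Atf6 at -0.29 ± 0.22, with probe sets of both signs for Ern1 and Atf6. None of the 13 tested sensor and transcription factor genes passed. Among them were Mbtps1, the protease that cuts ATF6 (0.21 ± 0.10, probe sets from -0.13 to 0.34), and Atf4, the factor of the PERK arm. Atf4 had deposited signals of 994 and 1409 against 743 and 522, and a difference of -0.55 ± 0.18 (adjusted p = 0.136). None of 8 tested PERK arm targets passed (median -0.14, from -0.96 to 0.27). Nearest to the threshold by limma was Sesn2, named after its values were seen, at -0.69 ± 0.17 (adjusted p = 0.0537). Its probe sets were at -0.69 and -0.66. Ppp1r15a, which restarts translation, had deposited signals of 355 and 1391 against 322 and 253, so that 1 TGFb1 array stood apart, and was at -0.96 ± 0.51. Ddit4, an inhibitor of the growth kinase mTOR, was at 0.27 ± 0.20.

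The genes that passed lay elsewhere in the secretory pathway. Among 21 tested ER folding genes outside the 10, 2 fell. Prdx4, a peroxiredoxin of the ER that uses peroxide to form disulphide bonds, had deposited signals of 604 and 453 with TGFb1 and 270 and 190 with progesterone, and fell by 0.86 ± 0.15 (adjusted p = 0.017), though its probe sets ran from -0.86 to -0.01. Fkbp2, a prolyl isomerase of the ER, had 521 and 393 against 241 and 179 and fell by 0.79 ± 0.15 (adjusted p = 0.0223). Pdia3, a disulphide isomerase that works with calreticulin and calnexin, was at -0.19 ± 0.07 and Ppib, cyclophilin B, at 0.16 ± 0.08, and neither passed. Of 22 tested genes for the translocon, signal peptidase and N-glycosylation 1 fell, the signal peptidase subunit gene Sec11c, with 2098 and 1763 against 972 and 725. It fell by 0.77 ± 0.09 (adjusted p = 0.0037), and a second probe set was at -0.20. Sec61b, a translocon subunit, was at -0.0049 ± 0.08 and Stt3b, a catalytic subunit of oligosaccharyl transferase, at 0.15 ± 0.08. Sec11c, Prdx4 and Fkbp2 were below 0 in all 16 alternatives, and passed in 14, 12 and 11 of them. None of the 3 passed without an intensity trend or without progesterone replicate 2, Prdx4 and Fkbp2 did not pass without a level filter or without progesterone replicate 1, and Fkbp2 did not pass without TGFb1 replicate 1.

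Of 18 tested genes for ER exit and retrieval 1 rose, the coat subunit gene Sec24c, at 0.41 ± 0.09 (adjusted p = 0.0378), with deposited signals of 1278 and 1188 against 1385 and 1092. It was at -0.0027 on deposited signals, -0.13 after centring on array medians and 0.20 with one 75th percentile, and passed under none of these scalings. It passed in 8 of 16 alternatives and also did not pass without a level filter, without an intensity trend, or without TGFb1 replicate 1 or either progesterone array. Kdelr1, a receptor that returns chaperones to the ER, was at -0.22 ± 0.13 and the GTPase gene Sar1b at 0.06 ± 0.10. None of 18 tested genes of ER-associated degradation passed (median 0.12), with Derl1, a channel component, at 0.15 ± 0.09 and Vcp, the ATPase that pulls proteins out of the ER, at -0.10 ± 0.13. None of 20 cytosolic chaperone genes passed (median 0.06), with Hspa8 at -0.11 ± 0.07 and the chaperonin subunit gene Cct2 at -0.23 ± 0.07, nor did any of 9 mitochondrial ones (median 0.19), with Hspd1 at 0.24 ± 0.11 and Hspe1 at -0.12 ± 0.09. The tested probe sets of Hspa8 ran from -0.85 to 0.18, those of Derl1 from -0.22 to 0.40 and those of Vcp from -0.10 to 0.44.

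**Figure D5:**
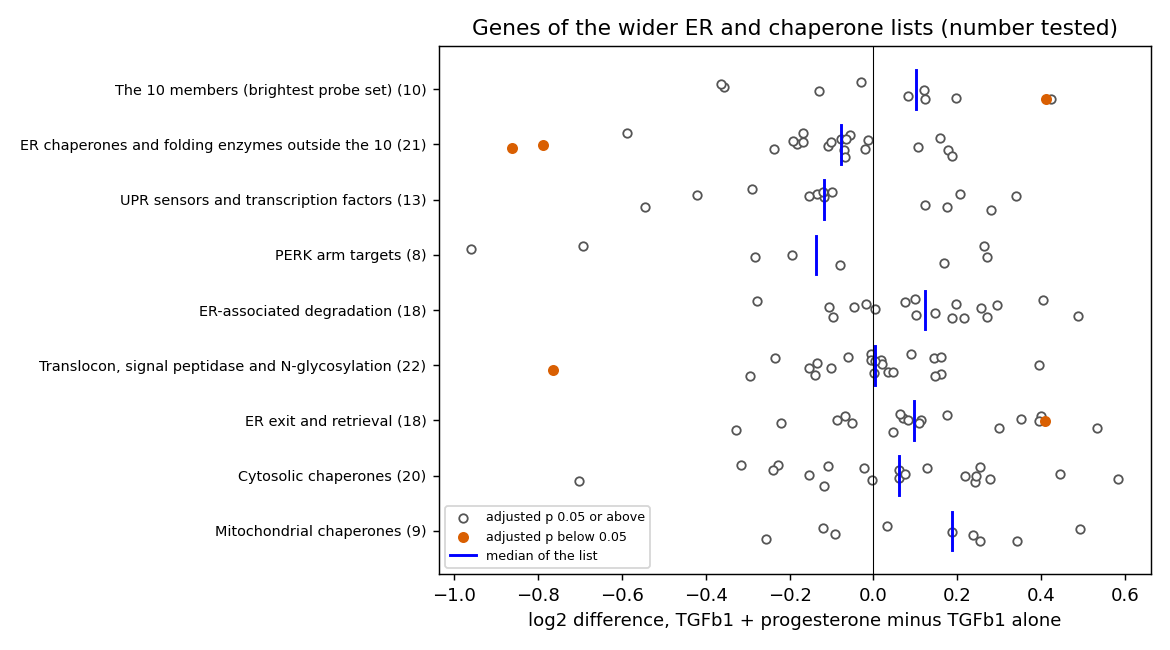
Each point is a gene by its brightest probe set, placed by its log2 difference, TGFb1 plus progesterone minus TGFb1 alone, in rows for the 10 members and 8 wider lists, with blue bars for list medians; vertical scatter within a row has no meaning. Filled points passed the test: Xbp1 and Sec24c to the right, and Prdx4, Fkbp2 and Sec11c near -0.8 to the left.

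Genes were also chosen by promoter letters alone, a set that takes in 5 of the 10 members again. In all, 37 genes had an ERSE in their window, and 14 of them were tested. None of the 14 passed by limma (adjusted p below 0.05), against 2.63% higher and 4.68% lower of 10501 genes. At an unadjusted limma p under 0.05 there was 1 of the 14, the member Calr, against 21.3% of all 22518 tested probe sets. Their median was 0.11, and that of the 9 that were no members was 0.09, against 0.02 for 10501 genes. The 9 that were no members included the ER degradation ligase gene Syvn1 (0.29, 95% interval -0.02 to 0.61), the BiP co-chaperone gene Dnajc3 (-0.11, interval -0.38 to 0.16), Creld2, an ER stress target (-0.02, interval -0.43 to 0.39), and Ero1b, an oxidase that feeds disulphide isomerases (-0.24, interval -0.61 to 0.14). Over all tested probe sets Dnajc3 ran from -0.56 to -0.11, Ero1b from -0.71 to -0.24 and Syvn1 from 0.11 to 0.29. Among members, the tested probe sets of the 5 ERSE genes ran from -0.24 to 0.42. Xbp1, whose window holds neither element, was the member with a call, which was not made under any other scaling of the arrays. A link between these elements and the differences was not tested.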

How the data were processed

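RNA from 4 samples was measured on Affymetrix mouse arrays of 45101 probe sets, 64 of them controls. The deposited values are linear MAS5 signal intensities, the summarised brightness of each probe set, that the authors computed per the submitters' processing notes; the version and scaling target are not given in the sources used here, and no depth applies, so the number of arrays limits precision. Signals were quantile normalised and taken as log2(signal + 16), and the 22518 probe sets above the median by mean were fitted with limma 3.58.1 (R 4.3.3; lmFit, eBayes with intensity trend, 2 arrays per group, 2 residual degrees of freedom) with Benjamini-Hochberg adjustment over all of them at 0.05. Differences are progesterone minus TGFb1 alone on that log2 scale, which understates changes of dim probe sets. Errors are limma's SE. On the values as deposited limma's prior degrees of freedom were infinite, so SE and calls there do not use a probe set's own spread. Names come from the platform annotation updated through RefSeq (34945 probe sets with 1 gene, 932 with several, 9160 with none; 34741 matched). Beyond the members, text names up to 4 called and the 2 brightest uncalled genes per list, chiefly, with the sensors and the T cell genes Cd3e and Cd4 always. Members and lists were chosen with earlier results of these data known. The fit was tested on simulated data. Alternatives changed scaling, pseudocount, filter, variance model, probe sets, replicate block and single arrays.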

Additional observations from a re-analysis of the deposited data

How the results depend on the processing

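Beside 532 higher and 816 lower calls over all probe sets, 1 and 0 among member probe sets and 1 and 3 in the wider lists, the counts (higher, then lower) moved as follows; their causes were not tested. As deposited they were 282 and 1298, 0 and 0, and 0 and 8; centred on array medians 267 and 5276, 0 and 7, and 0 and 54. With one 75th percentile the members had 0 and 1 and the lists 0 and 10. Without a level filter, with more probe sets tested, they were 176 and 358, 0 and 0, and 0 and 1; with the upper 25 percent by mean 449 probe sets were lower and 0 members higher. Without an intensity trend they were 130 and 351, 0 and 0, and 0 and 0. The robust variance model called 2 members higher, and leaving out _x_at and _s_at probe sets left 15 member probe sets, 0 of them called. With 1 probe set per gene, over 10501, 314 were higher and 543 lower, and 5 list genes were lower. With the replicate number as a block they were 1522 and 1630, 5 and 1, and 10 and 10; the samples share only a number (deviations of same-numbered arrays correlated at r = 0.18 across 22518 probe sets, over 2 pairs). Leaving out 1 array gave 66 to 721 higher and 257 to 925 lower over all, 0 to 2 and 0 to 1 among members, and 0 to 5 and 0 to 4 in the lists. Without progesterone replicate 1 the calls over all were 118 and 464, and without progesterone replicate 2 they were 66 and 257; the lone sample is assumed to vary like the other group. Values of opposite sign, counted where either fit made a call, were -0.47 for Canx 1415692_s_at and -0.149 for Xbp1 1437223_s_at when centred, and -0.0256 for the latter as deposited. Of the other single-probe-set values 302 kept direction and side of the threshold or changed sign uncalled, 16 became called and 7 lost a call. Sign changes without a call were 10 as deposited, 8 when centred and 4 with one 75th percentile, among 22 member probe sets.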

Other observations

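The gap between the replicates of the TGFb1 group was wide for a few stress genes and ordinary for others, as given here for genes picked after their values were seen. On the log2 scale it was 1.97 for Ppp1r15a, at the 99.9th percentile of all tested probe sets, 0.74 for Ddit4 at the 96.5th and 0.58 for Atf4 at the 92.6th. It was 0.33 for Asns at the 73.4th percentile, 0.29 for Trib3 at the 68.8th and 0.17 for Ddit3, which encodes CHOP, at the 46.7th. Replicate 2 was the higher array for Ppp1r15a and Atf4 (quantile-normalised signals of 858 and 1295) and the lower one for Ddit4 (3449 and 2061).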
